A study of Mus musculus with 2 samples.

Results

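The *Krt79* keratinocytes described here were 606 of the 23089 cell barcodes obtained from mouse skin wounds, 518 in the library labelled PBS and 88 in the library labelled DTX. A member had to pass 4 gates. The barcode had at least 500 detected genes and at most 6% of its unique molecular identifiers (UMIs, each standing for 1 captured transcript) from mitochondrial genes. Keratins 5, 14, 1, 10, 6a, 16 and 17 and the epithelial galectin *Lgals7* together made up at least 1.5% of its UMIs, while *Col1a1* and *Col3a1* stayed under 0.5% and *Lyz2* under 5 UMIs. It carried at least 5 *Krt79* UMIs, and fewer than 3 UMIs of the division genes *Mki67* and *Top2a*. The members were thus chosen by their RNA counts, *Krt79* first among them, and the levels of the members against other keratinocytes below are a description with no test.

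The study addressed how macrophages that carry the mannose receptor CD206, encoded by *Mrc1*, take part in wound repair. Both libraries came from back skin wounds 5 days after injury, in C57BL/6 mice 7 to 9 weeks old whose genotype is given as Mrc1-DTR, a line with the diphtheria toxin receptor under the *Mrc1* promoter. One library is labelled PBS and the other Diphtheria toxin (DTX). Living cells were sorted as 7AAD-negative, mice were pooled, and there is 1 library per label, so no difference between the labels has a replicate and none was tested. Intervals given below are 95% and cover counting error only. The study's methods describe the controls as wild-type mice that also received the toxin, and its text gives the barcode totals of these libraries to the opposite groups. The targeted gene and the make-up of the libraries were therefore examined first. Over all cells that passed the quality filter, *Mrc1* was found in 1766 of 8326 cells (21.2%, exact binomial interval 20.3 to 22.1) of the PBS-labelled library and in 3603 of 7188 cells (50.1%, 49.0 to 51.3) of the DTX-labelled library, at 65.5 and 267 CPM (UMIs of the gene per 1000000 UMIs of the cells). Within cells marked as macrophages (at least 10 UMIs of *Cd68*, *Tyrobp* and *Lyz2*, with little collagen RNA) it was found in 64.7% (62.7 to 66.7) and 61.4% (60.1 to 62.7) of cells, at 345 and 380 CPM. Such cells were 2222 of 8326 in the PBS-labelled and 5540 of 7188 in the DTX-labelled library, and gated keratinocytes were 23.5% and 3.03% of the cells. The DTX-labelled library thus held more macrophage-marked cells and fewer keratinocytes. The study's text describes a larger share of immune cells, and fewer fibroblasts and epithelial cells, in the group depleted of CD206-bearing macrophages. Whether labels were exchanged was not tested. *Mrc1* RNA was higher under the DTX label over all cells, while among macrophage-marked cells its share was slightly lower and its level slightly higher. Every direction below follows the labels as deposited.

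In normal skin, *Krt79* marks the infundibulum, the funnel through which the hair follicle opens onto the epidermis, together with the duct of the sebaceous gland. Cells there differentiate from an outer basal layer towards a cornified lining of the canal, and after injury cells of the upper follicle are known to move into the regenerating epidermis. *Krt79* encodes a type II keratin, and *Krt17* a type I keratin of follicles and injured epidermis. *Cst6* encodes cystatin M/E, an inhibitor of cathepsins and legumain, *Defb6* a beta-defensin, and *Klk7* a serine protease that cuts corneodesmosomes during shedding. The position of a cell in the tissue was not measured.

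On GRCm38, *Krt79* (ENSMUSG00000061397) lies on the minus strand at chr15:101929332-101940324, *Cst6* (ENSMUSG00000024846) on the minus strand at chr19:5344705-5349574, and *Defb6* (ENSMUSG00000050756) on the plus strand at chr8:19225478-19228209. *Krt17* (ENSMUSG00000035557) lies on the minus strand at chr11:100256217-100261029 and *Klk7* (ENSMUSG00000030713) on the plus strand at chr7:43811294-43816359. The 250 bases upstream of the start are shown for 3 of the 5 marker genes, since all 5 stood higher in the members, and the other two, *Cst6* and *Krt17*, had no entry in the RefSeq table used. The sequences are from RefSeq (GRCm38.p6), each 5′ to 3′ on the strand of its gene, from chr15:101940325-101940574, chr8:19225228-19225477 and chr7:43811044-43811293. Capitals mark letters that match 1 of the 5 motifs searched.
Krt79: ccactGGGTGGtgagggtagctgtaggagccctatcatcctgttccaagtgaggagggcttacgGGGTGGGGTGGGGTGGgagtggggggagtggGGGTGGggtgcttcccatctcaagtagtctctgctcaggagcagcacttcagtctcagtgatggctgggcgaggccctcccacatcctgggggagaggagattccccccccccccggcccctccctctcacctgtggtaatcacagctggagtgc
Defb6: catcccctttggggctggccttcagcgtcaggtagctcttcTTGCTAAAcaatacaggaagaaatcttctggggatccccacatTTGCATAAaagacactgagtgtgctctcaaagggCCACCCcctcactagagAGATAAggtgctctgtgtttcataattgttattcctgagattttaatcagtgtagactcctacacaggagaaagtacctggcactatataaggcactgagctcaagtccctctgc
Klk7: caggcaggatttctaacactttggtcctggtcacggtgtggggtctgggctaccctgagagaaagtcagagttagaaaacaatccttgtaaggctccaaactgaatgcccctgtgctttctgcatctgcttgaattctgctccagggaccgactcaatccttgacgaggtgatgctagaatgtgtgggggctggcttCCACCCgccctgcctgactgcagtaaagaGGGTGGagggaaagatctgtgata
Both strands were searched for each motif. The letters of AP-1 were TGANTCA, and those of the C/EBP family were TTGCNNAA. The KLF family was searched as CCACCC. A factor of the GATA family was searched with the letters AGATAA, and the promoter element named after its letters, the TATA box, was searched with the letters TATAAA. The *Krt79* window held 5 KLF matches, all on the opposite strand, with 2 bases shared between neighbouring matches. The *Defb6* window held 1 GATA, 2 C/EBP and 1 KLF match, and the *Klk7* window 2 KLF matches. Of all 32851 RefSeq windows of this length, 28.1% held the KLF letters, 12.4% the TATA box, 9.99% GATA, 9.56% C/EBP and 6.75% AP-1. Among the 15 genes that stood highest in the members, 9 had a window. The KLF letters were in 5 of those 9, C/EBP in 2, GATA and AP-1 in 1 each, and the TATA box in 0. A match describes these letters in this window and no binding was measured.

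*Krt79* counts lay in separate ranges within the gated keratinocytes. Of 1892 non-cycling gated cells in the PBS-labelled library, 1119 had no *Krt79* UMI, 239 had 1 or 2, 16 had 3 or 4, and 441 had 20 or more. Of 210 such cells in the DTX-labelled library, 97 had none, 19 had 1 or 2, 6 had 3 or 4, and 76 had 20 or more. Few cells therefore lay near the threshold of 5 in either library. Just inside it, at 5 or 6 UMIs, were 18 cells with *Cst6* at 699 CPM and *Defb6* at 1760 CPM in the PBS-labelled library, and 2 cells with 1614 and 7531 CPM in the DTX-labelled library, which were shallow (median 929.5 UMIs). Just outside, at 3 or 4 UMIs, 16 cells had *Cst6* at 1254 CPM and *Defb6* at 935 CPM, and 6 cells had 10030 and 2367 CPM. The 6 cells just outside the threshold in the DTX-labelled library thus carried more *Cst6* RNA per UMI than the 2 just inside.

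**Figure D1:**
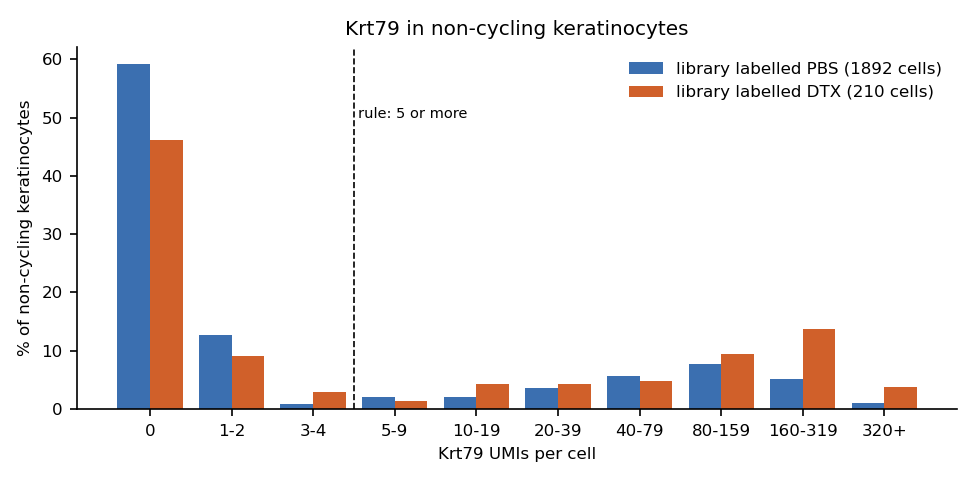
Share of non-cycling gated keratinocytes (vertical axis, % of 1892 cells in the PBS-labelled and 210 in the DTX-labelled library) by *Krt79* UMIs per cell (horizontal axis, classes), with a dashed line at the threshold of the rule. Most cells have 0 UMIs or 20 and more, and 16 and 6 cells have 3 or 4.

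*Krt79* RNA outside the keratinocyte gate was not counted as membership. At least 5 *Krt79* UMIs were found in 627 quality-filtered cells of the PBS-labelled library and 114 of the DTX-labelled library, of which 99 and 24 failed the keratinocyte gate. Among those that passed it, 10 of 528 cells (1.89%, 0.912 to 3.46) and 2 of 90 cells (2.22%, 0.270 to 7.80) were set aside as cycling. Among gated cells below 5 *Krt79* UMIs, 58 of 1432 (4.05%, 3.090 to 5.205) and 6 of 128 (4.69%, 1.74 to 9.92) met the same division rule. The share was lower among cells with at least 5 *Krt79* UMIs in both libraries. The intervals of the 2 classes overlapped, which does not measure their difference, and the difference was not tested. The members had a median of 11049 UMIs (728 to 55449) and 2639 genes in the PBS-labelled library and 15263.5 UMIs (788 to 40032) and 3145 genes in the DTX-labelled library. Their median mitochondrial share was 4.51% and 5.14%. The libraries shared 37 barcodes, 2 of them members in the PBS-labelled library and 0 in the DTX-labelled library.

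Under the rule, members made up a larger share of the keratinocytes in the DTX-labelled library and a smaller share of all its cells. They were 518 of 1892 non-cycling keratinocytes (27.4%, 25.4 to 29.4) in the PBS-labelled library and 88 of 210 (41.9%, 35.2 to 48.9) in the DTX-labelled library. As a share of all quality-filtered cells they were 6.22% (5.71 to 6.76) and 1.22% (0.983 to 1.51). Basal comparison cells (at least 1% of UMIs from *Krt5* and *Krt14*, under 0.5% from *Krt1* and *Krt10*) made up 35.1% and 21.9% of the non-cycling keratinocytes, and spinous comparison cells (at least 1% from *Krt1* and *Krt10*) 9.51% and 5.24%. With mitochondrial shares up to 10% admitted, the members numbered 706 and 217, and their share was 29.9% and 48.2%. With cells limited to at most 2000 genes, 69 members (47.3% of non-cycling keratinocytes) and 5 members (35.7%) were left, so the order of the shares turned. How many keratinocytes left the tissue alive during dissociation was not measured, so these shares are of cells recovered.

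All 5 marker genes stood at least 2-fold higher in the members than in the other non-cycling keratinocytes (1374 and 122 cells), in both libraries. *Krt79*, the gene that chose them, stood at 8392 CPM (8323 to 8462, exact Poisson interval) and 10264 CPM (10093 to 10436), against 17.03 and 20.9 CPM in the others. *Cst6* stood at 41627 CPM (41472 to 41781) in members and 256 CPM in others of the PBS-labelled library. In the DTX-labelled library it stood at 36051 CPM (35731 to 36374) and 524 CPM. *Cst6* was thus 162-fold and 68.9-fold higher in the members. Of the 1053 *Cst6* UMIs in the others of the DTX-labelled library, 661 came from the 6 cells just outside the *Krt79* threshold. Against others with at most 2 *Krt79* UMIs (1358 and 116 cells), *Cst6* was 171-fold and 179-fold higher, and *Klk7* 13.1-fold and 28.5-fold. *Defb6* stood at 7395 and 7260 CPM in members against 399 and 503 CPM in others, which is 18.5-fold and 14.4-fold. *Klk7* stood at 4287 and 6048 CPM against 337 and 328 CPM, and *Krt17*, itself 1 of the 8 genes of the gate, at 13165 and 16354 CPM against 2073 and 4407 CPM. The gap for *Krt17* was the smallest of the 5 in both libraries, at 6.35-fold and 3.71-fold.

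**Figure D2:**
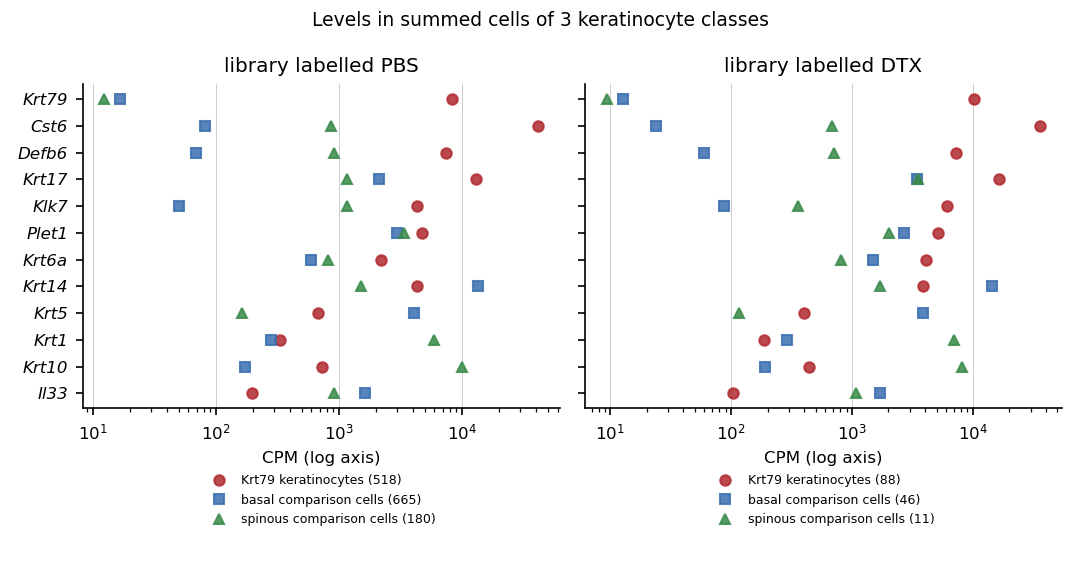
Levels of marker genes and of keratinocyte genes (horizontal axis, CPM on a log scale) in *Krt79* keratinocytes, basal and spinous comparison cells, with 1 panel per library. Each point is the summed UMIs of 1 cell class in 1 library, cell numbers are in the legend, and the *Krt79* keratinocytes are highest for each of the 5 infundibulum markers in both libraries.

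The comparison class mattered for the secreted markers. Members of the PBS-labelled library exceeded basal cells by 8.98 (log2 ratio of CPM) for *Cst6*, 6.73 for *Defb6* and 6.42 for *Klk7*. They exceeded spinous cells by 5.60, 3.01 and 1.89 for the same genes, so spinous cells lay nearer to the members for each of these genes. Of 1332 genes with a mean of at least 100 CPM, 32 (2.40%) were at least 2-fold higher in members than in both basal and spinous cells of both libraries, and 27 (2.03%) at least 2-fold lower.

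Most members carried the other markers at equal depth. After each cell was thinned to 5000 UMIs, which left out 18 and 5 members that were shallower, *Cst6* was detected in 88.0% of members of the PBS-labelled library and 81.9% of the DTX-labelled library, *Defb6* in 97.4% and 94.0%, *Klk7* in 87.6% and 86.7%, and *Krt17* in 99.4% and 100%. In other keratinocytes the shares were 41.9% and 28.1% for *Cst6*, 36.8% and 39.5% for *Defb6* and 18.8% and 21.1% for *Klk7*. Macrophage-marked cells, which should lack these genes, showed *Defb6* in 12.5% and 4.55%, *Klk7* in 7.40% and 3.26%, and *Krt17* in 25.1% and 9.90% of cells. They showed *Cst6* in 41.1% (median depth 5768.5 UMIs before thinning) and 11.6% (6989 UMIs) of cells. The *Cst6* share of other keratinocytes in the PBS-labelled library was thus close to that of macrophage-marked cells, although its level there was uneven, at 82.3 CPM in basal and 858 CPM in spinous cells. *Krt79* was found in 11.2% and 5.8% of macrophage-marked cells. Without thinning, at least 2 UMIs of 3 or more of the other 4 markers were present in 482 of 518 members (93.1%) and 77 of 88 (87.5%), against 325 of 1374 (23.7%) and 30 of 122 (24.6%) of the other keratinocytes.

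Across the genes that passed the filter, 63 of 1332 (4.73%) were at least 2-fold higher in the members than in the other keratinocytes in both libraries, and 57 (4.28%) at least 2-fold lower. The filter is on the mean over both classes, so a gene can pass through the class where it is high, and the counts per list below describe the genes that passed and support nothing about a list. Proteases were one group among the higher genes. Of 10 kallikreins listed, *Klk6*, *Klk7*, *Klk8* and *Klk10*, which all lie on chromosome 7, passed the filter and were higher. The level in the other keratinocytes alone was under 100 CPM for *Klk6*, *Klk8* and *Klk10*. *Klk6* stood at 635 and 801 CPM in members against 7.00 and 21.4 CPM in others. *Klk10* stood at 536 and 527 CPM against 43.8 and 68.1 CPM, and *Klk8* at 154 and 222 CPM against 41.7 and 40.3 CPM. Among cathepsins, lysosomal proteases, 3 of 5 were higher. *Ctsl*, which cystatin M/E inhibits, stood at 1058 and 847 CPM against 137 and 115 CPM, and *Ctsd* at 821 and 849 CPM against 147 and 140 CPM.

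Protease inhibitors were divided. Of 11 that passed, 4 were higher and 3 lower in the members in both libraries. Besides *Cst6*, the higher ones were *Cstb* (4731 and 3723 CPM against 1314 and 1041 CPM), *Serpinb8*, and *Spink5*, which encodes the kallikrein inhibitor LEKTI (898 and 1076 CPM against 207.3 and 319.2 CPM). The lower ones were the stefins *Stfa1* and *Stfa3* and the serpin *Serpinb2* (3109 and 3041 CPM against 7850 and 6449 CPM). Genes of the same inhibitor families thus lay on both sides.

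Antimicrobial genes were the next group. Of 6 that passed the filter, 4 were at least 2-fold higher in both libraries. *Defb1*, a constitutive beta-defensin, stood at 843 and 697 CPM in members against 91.0 and 50.2 CPM in others. *Chil1*, a chitinase-like lectin, stood at 112 and 434 CPM against 3.58 and 30.8 CPM. The fourth, besides *Defb6*, was *Lcn2*, which encodes an iron-sequestering lipocalin.

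Among genes of late differentiation, 4 of 11 that passed were higher than in the other keratinocytes in both libraries and 0 lower. In the PBS-labelled library the list's median log2 ratio was 3.96 against basal cells, but -0.39 against spinous cells. The list's sum was 5345 and 4813 CPM in members and 7402 and 4915 CPM in spinous cells. As a list, these genes were thus not higher in members than in spinous cells. *Cdsn*, encoding the corneodesmosomal adhesion protein that KLK7 cuts, stood at 417 and 338 CPM in members against 35.02 and 45.7 CPM in others. The others were *Spink5*, *Alox12e* and *Cnfn*, encoding the cornified envelope protein cornifelin (769 and 553 CPM against 202 and 251 CPM). The small proline-rich genes differed in direction. *Sprr1a* was higher (9227 and 9582 CPM against 3425 and 2894 CPM), whereas *Sprr2a3* (38.7 and 23.0 CPM against 141 and 487 CPM) and *Sprr2h* were lower.

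A carrier of retinoic acid stood among the highest genes. *Crabp2*, which brings retinoic acid to its receptors, stood at 703 and 820 CPM in members against 24.2 and 41.3 CPM in others, with log2 ratios of 4.86 and 4.31. Other genes among the 15 highest were *Calml3* (3.98 and 3.11), a calmodulin-like epithelial gene, *Psapl1* (3.49 and 3.37) and the unnamed gene *2010109I03Rik* (2.65 and 3.75). These genes were ranked by the smaller of their ratios in the 2 libraries. In the PBS-labelled library *2010109I03Rik* stood at 144.5 CPM in members, 93.9 CPM in spinous and 2.84 CPM in basal cells. It was thus under 2-fold against spinous cells there (log2 ratio 0.62). A single member supplied 11.4% and 21.5% of its UMIs in the PBS- and DTX-labelled libraries.

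**Figure D3:**
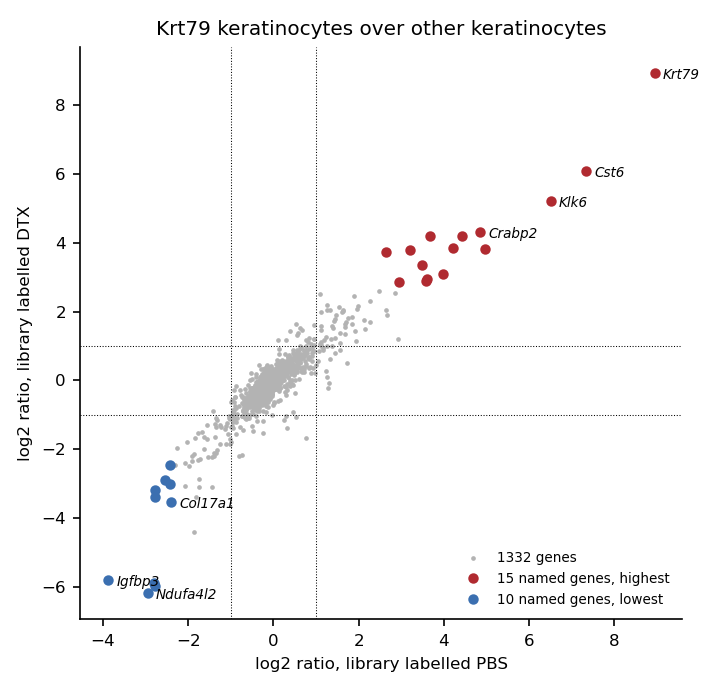
log2 ratio of CPM, *Krt79* keratinocytes over other gated keratinocytes, for 1332 genes in the PBS-labelled library (horizontal axis) and the DTX-labelled library (vertical axis), with dotted lines at 2-fold. *Krt79* (8.95 and 8.94), *Cst6* and *Klk6* lie farthest up both axes, and *Igfbp3* (plotted at its bound in the DTX-labelled library) and *Ndufa4l2* are among the lowest.

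Of 17 transcription factors that passed, 5 were higher in members of both libraries and 1 lower. *Klf4*, a factor of barrier formation, stood at 865 and 1075 CPM against 364 and 261 CPM in others. *Sox9*, a follicle lineage factor, stood at 683 and 678 CPM against 212 and 266 CPM. *Nfatc1* (log2 ratios 1.56 and 1.10), *Hopx* (1.24 and 1.25) and *Cebpb* (1.12 and 1.02) were higher by smaller ratios, and *Gata3*, a factor of epidermal and inner root sheath differentiation, was lower (-1.63 and -1.65). Of the upper follicle list, 4 of 6 genes were higher, among them *Klk10*, *Sox9* and *Krt80*, and *Krt77*, a suprabasal keratin, was lower (-1.09 and -1.23). The regulator *Gata6*, known from the sebaceous duct, was too scarce for the filter, at 42.3 and 46.8 CPM in members. *Plet1*, a surface marker of the upper follicle, was abundant in both classes, at 4786 and 5162 CPM in members and 3250 and 2913 CPM in others.

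RNA of other follicle programmes was uneven in the members. Of 18 sebaceous gland genes, 3 passed the filter and 0 were past 2-fold in both libraries. The list's sum was 2628 and 3749 CPM in members and 3642 and 4999 CPM in others, led by *Fabp5*, which keratinocytes in general express. *Fabp5* alone stood at 1457 and 2803 CPM in members and 2915 and 4307 CPM in others. The lower sum in members thus came from this gene and not from the rest of the list. The sebocyte regulator *Pparg* and the melanocortin receptor *Mc5r* had 0 UMIs in all 606 members, which allows up to 3 UMIs in each library. Of the hair shaft and inner root sheath list, *Krt28*, *Krt71*, *Krt35* and *Lef1* likewise had 0 UMIs. The bulge keratin *Krt24* had 0, and the bulge markers *Cd34* and *Lgr5* had 18 and 1, and 4 and 1 UMIs. The bulge and outer root sheath list as a whole was nevertheless abundant, at 1544 and 1552 CPM in members and 1476 and 1377 CPM in others, led by *Sox9*, and 2 of its 4 genes that passed the filter, *Sox9* and *Nfatc1*, were past 2-fold higher in both libraries, while 1, *Postn*, was past 2-fold lower.

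Genes of the basal layer were lower in the members than in the other keratinocytes. Of 9 that passed the filter, 6 were at least 2-fold lower in both libraries. In the PBS-labelled library the list's median log2 ratio was -2.46 against basal cells, but 1.36 against spinous cells. The list's sum, with *Krt5* and *Krt14* of the gate, was 6780 and 5433 CPM in members and 2816 and 3384 CPM in spinous cells. The spinous class held 11 cells in the DTX-labelled library. As a list, these genes were thus not lower in members than in spinous cells. *Krt5*, which is in the gate, stood at 682 and 398 CPM in members against 2317 and 1978 CPM in others. *Col17a1*, the hemidesmosomal collagen, stood at 103 and 34.9 CPM against 549 and 405 CPM, and *Itgb1*, the integrin beta 1 chain, at 107 and 39.4 CPM against 360 and 337 CPM. *Igfbp3* stood at 18.7 CPM against 276 CPM in the PBS-labelled library. In the DTX-labelled library it had 0 UMIs in members against 124 CPM, a log2 ratio of -5.80 or lower with 3 counts in place of 0. The spinous keratins, also in the gate, were lower too, *Krt1* at 331 and 186 CPM against 1763 and 1511 CPM and *Krt10* at 736 and 437 CPM against 2762 and 2000 CPM. *Krt6a*, a wound keratin and likewise a gene of the gate, was higher (2185 and 4074 CPM against 678 and 1378 CPM). Since these keratins helped to choose the cells, nothing is read from their order.

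The rest of the 10 lowest genes had varied roles. *Il33*, encoding a nuclear alarmin, stood at 196 and 104 CPM in members against 1348 and 1080 CPM in others, and was the only 1 of 8 cytokine and chemokine genes past 2-fold in both libraries. *Ptgs2*, encoding the prostaglandin synthase COX-2, stood at 38.4 and 2.97 CPM against 264 and 186 CPM. *Hpgds*, encoding a prostaglandin D synthase, stood at 44.7 and 35.6 CPM against 304 and 327 CPM. The peptide hormone gene *Pyy* stood at 30.2 and 8.17 CPM against 210 and 483 CPM. The hypoxia-induced gene *Ndufa4l2* stood at 44.4 and 1.49 CPM against 342 and 108 CPM. *Ggct*, a gene of glutathione turnover (105 and 78.0 CPM against 611 and 583 CPM), and *Ccdc71l* (157 and 134 CPM against 845 and 733 CPM) completed the 10 lowest.

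Members differed widely among themselves. Per 10000 UMIs of a cell, *Krt79* ranged from 1.61 to 343 with a median of 81.7 (quartiles 37.1 and 129) in the PBS-labelled library and from 4.19 to 247 with a median of 86.5 (45.8 and 148) in the DTX-labelled library. *Cst6* ranged from 0 to 3512 with a median of 145 (7.13 and 721), and from 0 to 2126 with a median of 116 (3.89 and 505). The upper quartile of *Cst6* was thus far above its lower quartile in both libraries. Over the 518 and 88 members, the Spearman correlation with *Krt79* was 0.62 and 0.71 for *Cst6*, 0.54 and 0.49 for *Defb6*, 0.69 and 0.53 for *Krt17* and 0.56 and 0.63 for *Klk7*. With the summed basal keratins *Krt5* and *Krt14* it was -0.45 and -0.65 for *Krt79* and -0.58 and -0.65 for *Cst6*. These correlations are across cells of 1 library, which share their source, all values are shares of the same UMI total, and the rule used *Krt79* and the keratins, so they are a description only.

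The members were also described along their basal keratin content, in tertiles set by the share of *Krt5* and *Krt14* in the PBS-labelled library (boundaries 0.0999% and 0.557% of UMIs). The low, middle and high tertiles held 173, 172 and 173 cells of the PBS-labelled library and 33, 25 and 30 of the DTX-labelled library. *Cst6* stood at 76287, 47698 and 10758 CPM from the low to the high tertile in the PBS-labelled library, and at 73022, 25268 and 6047 CPM in the DTX-labelled library. *Krt79* stood at 12169, 8679 and 5308 CPM, and at 14870, 10082 and 5569 CPM. *Cdsn* had a steeper course, at 1068, 260 and 39.3 CPM and at 871, 57.0 and 8.54 CPM. All 3 were highest where basal keratins were lowest, as were *Spink5* (1976, 667 and 251 CPM in the PBS-labelled library), *Sprr1a* (16930, 9146 and 3432 CPM) and *Sbsn*, encoding suprabasin (9482, 3791 and 1617 CPM). *Defb6* varied less, at 9744, 8851 and 4523 CPM.

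Genes of attachment to the basement membrane ran the other way. *Col17a1* stood at 8.37, 43.7 and 220 CPM from the low to the high tertile in the PBS-labelled library, and *Itgb1* at 16.7, 72.8 and 201 CPM. *Apoe*, encoding a lipid carrier, stood at 2346, 8768 and 9785 CPM there and at 1385, 5796 and 5825 CPM in the DTX-labelled library. Ribosomal protein genes (86) took 13.2%, 17.7% and 21.5% of UMIs in the PBS-labelled library and 11.7%, 17.5% and 20.8% in the DTX-labelled library. The order of the tertiles for these genes was alike in both libraries. The spinous keratin *Krt10* stood at 1322, 517 and 453 CPM in the PBS-labelled and 1074, 88.2 and 53.4 CPM in the DTX-labelled library, highest in the low tertile of both. *Krt1* stood at 258, 246 and 449 CPM and at 370, 77.8 and 83.3 CPM, highest in the high tertile of the first and the low tertile of the second. Only 4 and 1 members had at least 1% of UMIs from these 2 genes.

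**Figure D4:**
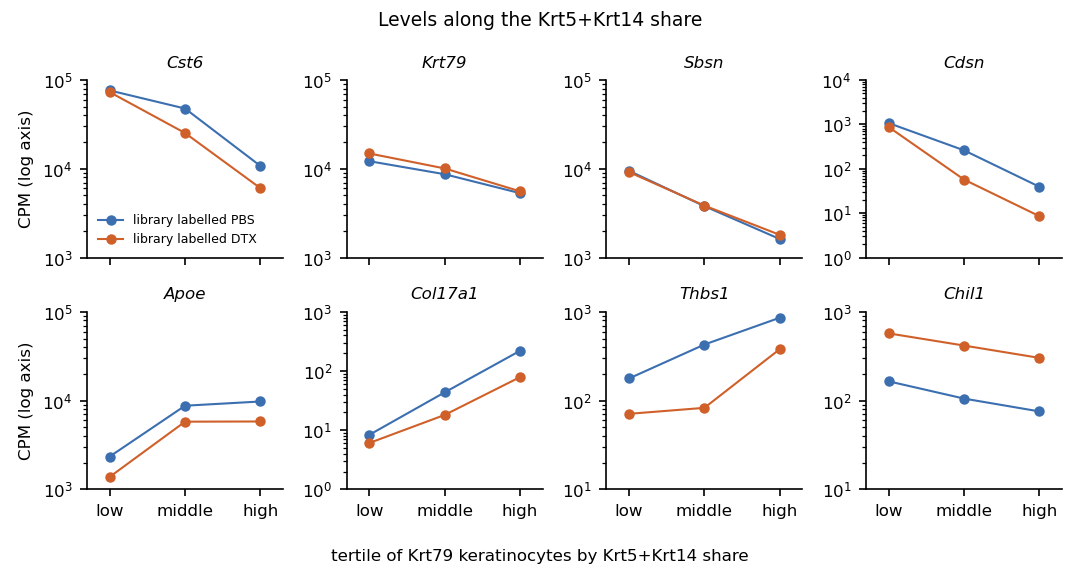
Levels of 8 genes (vertical axis, CPM on a log scale) in *Krt79* keratinocytes split into tertiles by the share of UMIs from *Krt5* and *Krt14* (horizontal axis, low to high), with 1 line per library. *Cst6*, *Krt79*, *Sbsn* and *Cdsn* are lower from left to right, *Col17a1* and *Thbs1* are higher, and *Chil1* is higher in the DTX-labelled library in each tertile.

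Between the labels, the members' profile was close to equal for most genes. Of 1360 genes with a mean of at least 100 CPM, 6 (0.441%) were at least 2-fold higher in the DTX-labelled library and 6 (0.441%) at least 2-fold lower. With a minimum of 20 CPM, 22 genes were higher and 51 lower. The median log2 ratio (DTX-labelled over PBS-labelled) was 0.01, with 52.1% of genes higher. The infundibulum markers themselves differed by 0.29 (*Krt79*), -0.21 (*Cst6*), -0.03 (*Defb6*), 0.31 (*Krt17*) and 0.50 (*Klk7*). From the low to the high tertile of basal keratin content, *Cst6* differed by -0.06, -0.92 and -0.83. None of these was past 2-fold.

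Of the 6 genes past 2-fold higher in members of the DTX-labelled library, 4 were antimicrobial genes, 1 was the wound keratin *Krt6b* and 1 was *2010109I03Rik*, and *S100a8*, *Lcn2* and *Krt6b* were under 100 CPM in the PBS-labelled library. *S100a8* (ENSMUSG00000056054, chr3:90668978-90670035, plus strand) and *S100a9* encode the subunits of calprotectin, a protein of neutrophils and of injured keratinocytes. *S100a8* stood at 38.4 CPM in the PBS-labelled and 286 CPM in the DTX-labelled library, a log2 ratio of 2.90 (2.66 to 3.13). With cells thinned to 5000 UMIs, 3.40% and 16.9% of members carried it, against 2.5% and 10.8% of macrophage-marked cells and 0.9% and 1.4% of fibroblast-marked cells. *S100a9* stood at 115 and 535 CPM, with a ratio of 2.22 (2.08 to 2.37). In the other keratinocytes the ratios were 1.62 and 1.11. In members with no *Lyz2* UMI (426 and 51 cells) they were 1.39 and 1.25.

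The share of *S100a8* detection in members of the DTX-labelled library lay above that of macrophage-marked cells, but both were higher than in the PBS-labelled library. The summed neutrophil markers stood at 167 and 833 CPM in the members, with *S100a9* the most abundant. Without *S100a8* and *S100a9* the other 6 genes of the list summed to 93 UMIs (13.9 CPM) and 16 UMIs (11.9 CPM), so the higher sum came from those 2 genes. Among the 6, *G0s2* had 0 UMIs in both libraries, *Retnlg* had 0 and 2 UMIs, and *Csf3r* 1 and 3 UMIs. The part of free or neutrophil RNA in the calprotectin values was not tested.

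*Chil1* (ENSMUSG00000064246, chr1:134182176-134190181, plus strand) stood at 112 and 434 CPM, with a ratio of 1.96 (1.80 to 2.12), and was detected in 27.6% and 48.2% of members at 5000 UMIs, against 1.06% and 0.985% of macrophage-marked cells. In the other keratinocytes its ratio was 3.11. *Lcn2* stood at 95.5 and 233 CPM, a ratio of 1.29 (1.09 to 1.49), against 3.005 in the others. Both genes were thus higher in the DTX-labelled library among members and among the other keratinocytes as a whole. The others held 70 and 62 *Chil1* UMIs, of which basal cells had 11 and 0 and spinous cells 27 and 0. In the DTX-labelled library all of them thus lay in cells of neither class. *Lcn2* was higher in basal cells (7.39 and 40.9 CPM) and in spinous cells (3.26 and 23.3 CPM, from 11 and 5 UMIs). *Krt6b*, a wound keratin, stood at 71.0 and 281 CPM (1.98, 1.78 to 2.18), but 1 cell supplied 47.8% of its UMIs in the PBS-labelled library and 1 cell 57.9% in the DTX-labelled library. *Krt6a* stood at 2185 and 4074 CPM (0.90, 0.85 to 0.94), and at 1.02 in the other keratinocytes. *2010109I03Rik* was higher by 1.09 (0.92 to 1.26) in members and stood at -0.01 in the others.

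The remaining genes among the 10 highest were under 2-fold. *Fabp5*, encoding an epidermal fatty acid carrier, stood at 1457 and 2803 CPM, a log2 ratio of 0.94. *Slc5a1*, a sodium-glucose transporter gene, had a ratio of 0.98 in members and -1.21 in the other keratinocytes, and *Endou*, an endonuclease gene, 0.95 and -0.49. The difference between the classes was not tested.

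Among the lower genes were an attractant of monocytes and a matrix protein. *Ccl2* (ENSMUSG00000035385, chr11:82035571-82037453, plus strand), encoding the monocyte chemokine CCL2, stood at 347 CPM in the PBS-labelled and 73.5 CPM in the DTX-labelled library, a log2 ratio of -2.24 (-2.55 to -1.95). It was detected in 37.4% and 18.1% of members at 5000 UMIs. Macrophage-marked cells, which make this chemokine, carried it in 48.7% and 58.0% of cells. With mitochondrial shares up to 10% admitted, the members' ratio was -0.87. A single cell supplied 46.5% of its UMIs in the DTX-labelled library, and without that cell the ratio was -3.003. *Thbs1* (ENSMUSG00000040152, chr2:118111876-118127133, plus strand), encoding thrombospondin 1, stood at 524 and 182 CPM, a ratio of -1.53 (-1.72 to -1.34). In the other keratinocytes the ratios were 0.21 for *Ccl2* and 0.13 for *Thbs1*, so both genes were lower in members and slightly higher in the rest as a whole. *Ccl2* was not higher in basal cells (121 and 110 CPM) or in spinous cells (57.5 and 9.34 CPM, from 194 and 2 UMIs). Cells in neither class were 529 of the 1374 others in the PBS-labelled and 65 of the 122 in the DTX-labelled library. *Thbs1* was higher in basal cells (2015 and 2185 CPM) and in spinous cells (629 and 1139 CPM).

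*Ifi202b*, an interferon-inducible gene, stood at 926 and 368 CPM (-1.33, -1.47 to -1.20). *Id3*, encoding an inhibitor of basic helix-loop-helix factors, stood at 151 and 63.9 CPM (-1.24, -1.57 to -0.92), and *Gadd45b*, a stress-induced gene, at 266 and 120 CPM (-1.15, -1.39 to -0.92). *Cd74*, the invariant chain of antigen-presenting cells, stood at 167 and 59.4 CPM (-1.49), with 34.9% of its UMIs in 1 cell of the PBS-labelled library and a ratio of -1.14 without that cell. *Apoe* stood at 7226 and 4192 CPM (-0.79, -0.83 to -0.75), and *Tm4sf1*, *Slc12a2* and *Gm20186* between -0.98 and -0.89. Over all 19 settings tried, *Chil1* (1.64 to 2.00), *S100a8* (1.39 to 3.79) and *Thbs1* (-2.37 to -1.18) stayed past 2-fold. The others of the 12 genes did not, among them *Krt6b* (0.45 to 3.33) and *Ccl2* (-4.63 to -0.87). With mitochondrial shares up to 10% admitted, 7 of the 12 genes were past 2-fold, and *Cd74* stood at -0.28, *2010109I03Rik* at 0.39 and *Gadd45b* at -0.72. Past 2-fold in each of the 3 tertiles of basal keratin content were 5 of the 12. *Lcn2* stood at 4.01 in the low and 0.11 (-0.23 to 0.43) in the high tertile, and *Cd74* at -0.20 (-0.87 to 0.42) in the low tertile. The 12 genes kept their sign in each tertile of basal keratin content except *S100a9* in the low tertile (-0.36) and *2010109I03Rik* in the high tertile (-0.49).

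**Figure D5:**
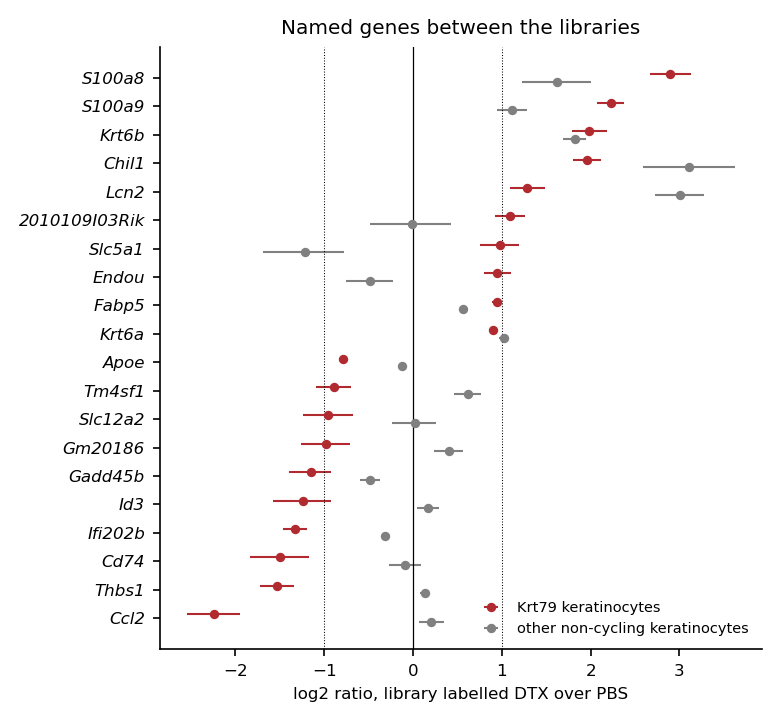
log2 ratio of CPM (horizontal axis, DTX-labelled over PBS-labelled library) in *Krt79* keratinocytes and in the other non-cycling gated keratinocytes for the 10 highest and 10 lowest genes, with bars for 95% counting intervals and dotted lines at 2-fold. *Ccl2* and *Thbs1* lie below 0 in the *Krt79* keratinocytes (-2.24 and -1.53) and near 0 in the others.

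Gene lists are described by the genes that passed the filter, which some passed through the library where they are high. All 8 cytokine and chemokine genes that passed the filter, of 25 measured, were lower in members of the DTX-labelled library, with a median log2 ratio of -0.48 against 0.01 over all genes, and 0 of the 8 were past 2-fold. They were led by *Il33* (-0.91), *Ccl20* (-0.83), encoding an attractant of CCR6-bearing cells, and *Ccl27a* (-0.65), encoding a skin-homing chemokine. In single tertiles the direction turned. *Cxcl1* stood at 0.69 (0.35 to 1.03) and *Cxcl2* at 0.68 (0.41 to 0.95) in the middle tertile. *Ccl20* stood at 0.34 and 0.24 in the middle and high tertile and *Il33* at 0.27 in the middle tertile, with intervals that included 0. Over all members *Cxcl2*, encoding a neutrophil attractant, stood at -0.62, with -2.67 in the high tertile, and *Cxcl14* at -0.22. In the other keratinocytes the median of the same genes was -0.18, with *Ccl20* at 0.55 and *Cxcl2* at 0.97. *Ccl2*, described above, is not on this list.

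The antimicrobial list had a median of 1.29, with 5 of 7 genes higher, 4 of them past 2-fold, against 0.441% of all genes past 2-fold higher. *Slpi*, which did not pass the filter, stood at -2.89, -1.94 and -1.99 from the low to the high tertile. *S100a8* and *Lcn2* passed the filter through the DTX-labelled library, where they are high, and the median was 0.62 with a minimum of 20 CPM and 0.47 with no filter. Its defensins were at -0.27 (*Defb1*) and -0.03 (*Defb6*), so the 4 were *S100a8*, *S100a9*, *Chil1* and *Lcn2*. The wound keratins had a median of 0.61 (1.06 in the other keratinocytes), from *Krt6a*, *Krt16* and *Krt17*, which are genes of the gate, and *Krt6b*, which passed the filter through the DTX-labelled library and rests on few cells, so nothing is read from this list. Kallikreins had a median of 0.43 with 5 of 6 higher, which was 0.12 with mitochondrial shares up to 10% and 0.030 in members without a *Lyz2* UMI. Basal layer genes had a median of -0.39 over 5 genes, of which *Krt5* and *Krt14* are genes of the gate and *Thbs1* was past 2-fold lower. Their median was -0.72 and -0.86 under the same settings and turned to 0.059 in the middle tertile. Immediate early and heat shock genes, which respond to dissociation as well as to injury, had a median of -0.17 with 13 of 17 lower, and -0.22 in the other keratinocytes. The same settings gave -0.35 and -0.0064 for this list, 0.43 and 0.37 for the wound keratins, and the first gave -0.25 for the cytokines.

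Several other keratinocyte lists had medians between -0.11 and 0.20. They were upper follicle (0.03, 5 of 9 higher), sebaceous gland (0.01, 2 of 4), spinous (0.10, 9 of 12), granular and cornified (0.09, 7 of 12), Sprr (0.20, 2 of 2), bulge (-0.01, 1 of 3), protease inhibitors (-0.03, 4 of 10), cathepsins (-0.06, 3 of 6), growth factors (-0.06, 2 of 5), migration (-0.11, 1 of 4), adhesion (-0.05, 5 of 11) and interferon response (0.01, 3 of 6). No gene of these lists that passed the filter was past 2-fold. The granular and cornified median turned to -0.18 with mitochondrial shares up to 10%, to -0.14 with no filter and to -0.17 in the low tertile. The spinous median was -0.011 with mitochondrial shares up to 10%.

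RNA of other cell types in the members also differed between the labels. Summed fibroblast markers stood at 575 and 188 CPM, led by *Dcn* and *Postn*, with *Pdgfra* and *Mfap5* at 0 UMIs in the DTX-labelled library. Summed macrophage markers stood at 216 and 136 CPM, led by *Cd74*, of which 1 cell of the PBS-labelled library held 391 UMIs, with *C1qa* and *Adgre1* at 0 UMIs in the DTX-labelled library. *Lyz2* ran the other way, at 15.5 and 32.7 CPM and in 17.8% and 42.0% of members. T and NK cell markers stood at 18.7 and 8.17 CPM, endothelial and mural markers at 33.2 and 21.5 CPM and melanocyte markers at 9.86 and 8.17 CPM, with *Dct*, *Pmel*, *Tyrp1* and *Kit* at 0 UMIs in both libraries. Langerhans cell markers stood at 3050 and 2538 CPM, nearly all *Epcam*, which keratinocytes also express, and *Cd207* had 46 and 0 UMIs. These sums were lower in the DTX-labelled library, unlike *Lyz2*, *S100a8* and *S100a9*, and their part in the genes that differed was not tested.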

How the data were processed

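Both libraries were made with the Chromium Single Cell 3′ v3 kit, which tags the 3′ end of each transcript, so levels are compared between cells for a gene and not between genes. The authors deposited filtered matrices of UMI counts per gene and cell for 31053 features, made with Cell Ranger 6.1.1 on mm10 per the labels. The study's methods name a different Cell Ranger version. Sorting was for living cells only, and the study's methods remove doublets by an upper limit of genes per cell and by dropping mixed clusters, while the deposited matrices hold cells past that limit, so that limit was an alternative here.

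The members and gene lists were chosen with earlier results of these data known. The 32 lists hold 459 genes, of which 5 were absent from the features. Cells were filtered and gated as described, UMI counts were summed per class and library, and levels were written as CPM of the summed UMIs without a pseudocount. Intervals (95%) are exact Poisson for CPM, Clopper-Pearson for shares and exact conditional binomial for log2 ratios. They treat UMIs and cells as independent. A count of 0 was set to 3 counts as a bound. Genes needed a mean of at least 100 CPM over the sums compared, and were called at 2-fold. With 1 library per label no test was possible. Named genes are those of the lists, the 15 highest and 10 lowest in members against other keratinocytes in both libraries, and the 10 highest and 10 lowest between the labels by the interval bound nearest 0. A gene can fall under more than 1 of these, and some genes are not reported here.

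Macrophage-marked cells had at least 10 UMIs of *Cd68*, *Tyrobp* and *Lyz2* and fewer than 10 of *Col1a1* and *Col3a1*. Fibroblast-marked cells had at least 10 of the latter outside the gate. Gene positions are from GENCODE on GRCm38 (30934 of 31053 identifiers matched). Doublets were scored with Scrublet in Scanpy 1.11.5, which called 4.59% of the PBS-labelled and 0% of the DTX-labelled cells, and so had not worked in the latter. Scored doublets were kept in the reported values. As an alternative, 382 PBS-labelled cells and the 576 highest-scoring DTX-labelled cells (8%) were removed. Python 3.11.15, NumPy 2.4.6, SciPy 1.17.1 and pandas 2.3.3 were used, and the summing and intervals were tested on simulated counts. The PBS-labelled library held 105511870 UMIs (median 7649 per barcode) and the DTX-labelled library 81858751 (median 6502).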

Additional observations from a re-analysis of the deposited data

Results flagged for a closer look

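In 3 genes past 2-fold the members and the other keratinocytes differed between the labels in opposite directions, with both counting intervals off 0. *Ccl2* had a log2 ratio (DTX-labelled over PBS-labelled) of -2.24 in members and 0.21 in the other keratinocytes. *Thbs1* had -1.53 and 0.13, and *Id3* had -1.24 and 0.17. In basal comparison cells alone the ratios were -0.14 (-0.49 to 0.19) for *Ccl2*, 0.12 (0.04 to 0.19) for *Thbs1* and 0.15 (-0.04 to 0.33) for *Id3*. With 1 library per label, the difference between the classes was not tested. In tertiles of basal keratin content the members' ratios were -3.01, -2.49 and -1.77 for *Ccl2*, -1.32, -2.37 and -1.18 for *Thbs1* and -1.70, -1.36 and -0.95 for *Id3*, from the low to the high tertile.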

How the results depend on the processing

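No paired analysis was possible because there is 1 library per label and no test. The limits are those of the design: no replicate, 88 members in the DTX-labelled library, labels that differ from the study's methods, and intervals of counting error only. Of 248 alternative values of 28 summary results, 180 moved little, 66 moved and 2 were counted as reversed. Some values counted as moved also changed sign. The granular and cornified median did so, from 0.09 to -0.18, -0.14 and -0.17 under the settings given below. Of 908 alternative values of single genes, 636 moved little, 260 moved and 12 changed sign. These values cover 56 of the named genes, and fewer of them in the tertiles, and the reversed genes given below are among these. Other list genes turned too, such as *Cxcl1* (0.69) and *Cxcl2* (0.68) in the middle tertile. The splits into tertiles, the 5000 UMI minimum and the removal of single cells were chosen after seeing the data.

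At most 2000 genes per cell left 69 and 5 members, too few to compare lists and single genes. The members' share was then 47.3% in the PBS-labelled and 35.7% in the DTX-labelled library (27.4% and 41.9% as reported), which turns the order. The counts of genes under this limit rest on 5 members of the DTX-labelled library: 472 genes were past 2-fold higher and 84 lower between the labels (6 and 6 as reported), and 34 lower than in other keratinocytes (57 as reported). At least 10 *Krt79* UMIs gave a share of 25.4%, and at least 3 gave 10 higher genes. Mitochondrial shares up to 10% gave a share of 29.9% and list medians of -0.72 (basal), -0.011 (spinous, reversed), -0.18 (granular, reversed), 0.43 (wound keratins), 0.12 (kallikreins), -0.25 (cytokines) and -0.35 (immediate early). A mean of 20 CPM gave 22 genes higher and 51 lower, 217 higher and 155 lower than in others, and an antimicrobial median of 0.62. No filter gave 1039 and 817, 548 and 446, and medians of -0.14 (granular, reversed), 0.31 (wound keratins) and 0.47 (antimicrobial).

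Members without a *Lyz2* UMI gave medians of -0.86 (basal), 0.37 (wound keratins), 0.030 (kallikreins), 0.77 (antimicrobial) and -0.0064 (immediate early). Cells thinned to 5000 UMIs, with at least 3 *Krt79* UMIs, gave 0.27 (wound keratins) and 0.28 (kallikreins). The mean of the cells' own CPM gave 0.37 (wound keratins), 1.63 (antimicrobial) and a reversed *Krt14* (0.018). In the low tertile 14 genes were lower, the medians were -1.32 (basal), -0.17 (granular, reversed), 0.14 (wound keratins) and 0.34 (antimicrobial), and *S100a9* (-0.36), *Fabp5* (-0.0095) and *Plet1* (-0.0059) were reversed. In the middle tertile 20 genes were higher and 17 lower, the medians were 0.059 (basal, reversed), 0.68 (wound keratins), 1.98 (antimicrobial), -0.12 (cytokines) and -0.33 (immediate early), and *Ccl20* (0.34), *Krt5* (0.51), *Krt14* (0.059) and *Il33* (0.27) were reversed. In the high tertile 11 genes were higher and 22 lower, the medians were -0.87 (basal), 0.78 (wound keratins) and 0.11 (antimicrobial), and *2010109I03Rik* (-0.49), *Endou* (-0.054), *Ccl20* (0.24) and *Krt14* (0.027) were reversed. The causes were not tested.

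Detection moved with depth. At 2000 UMIs per cell it was 19.3% and 8.24% for *Ccl2*, 16.5% and 31.8% for *Chil1*, and 9.41% for *S100a8* in the DTX-labelled library, and in the PBS-labelled library 79.7% for *Cst6*, 93.3% for *Defb6* and 83.5% for *Klk7*. Without thinning it was 58.9% and 35.2% for *Ccl2*, 6.76% and 28.4% for *S100a8*, 93.2% and 89.8% for *Cst6*, and, in the PBS-labelled library, 37.6% for *Chil1* and 91.1% for *Klk7*.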

Other observations

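All 4 genes of the cholesterol and lipid synthesis list that passed the filter, of 22 listed, were higher in members of the DTX-labelled library, with a median log2 ratio of 0.61 and none past 2-fold. Among them were *Fdps* (0.82), *Hmgcs1* (0.72) and *Msmo1* (0.16). The same genes had a median of 0.32 in the other keratinocytes. Glycolysis and hypoxia genes had a median of 0.15 with 8 of 11 higher, and transcription factors 0.14 with 12 of 17 higher. Over all 1360 genes that passed the filter, the median was 0.01 and 52.1% were higher, and nothing was tested about these lists.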
